A study of Saccharomyces cerevisiae with 8 samples.

Results

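The genes described here encode 10 transcription factors that set the expression of amino acid and purine synthesis genes in *Saccharomyces cerevisiae*: *GCN4* (YEL009C), *LEU3* (YLR451W), *ARG80* (YMR042W), *ARG81* (YML099C), *LYS14* (YDR034C), *ARO80* (YDR421W), *MET4* (YNL103W), *MET28* (YIR017C), *MET32* (YDR253C) and *BAS1* (YKR099W). They were taken by gene identifier from a table of 6103 genes, and all 10 passed the filter on low values that left 5628 genes to test. RNA-seq values were available for 4 strains with 2 libraries each, 8 libraries in all. The wild type was ScY01a, an industrial haploid strain of mating type a derived from an evolved thermotolerant parent. In *sin3∆*, *srb2∆* and *mig1∆* the coding sequence of *SIN3*, *SRB2* or *MIG1* had been replaced entirely by a KanMX cassette in ScY01a, and the sources do not say how many clones of each deletion were sequenced. All strains were cultured at 30°C and 200 rpm for 10 h, to early log phase, and the YP medium held glucose at 200 g/L. The sources call the libraries duplicates without saying that they came from separate cultures, so p-values here rest on a spread that may be technical.

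Levels are given as RPKM, the study's name for these values, which stands for reads per kilobase of gene scaled to the mapped reads of a library. The libraries' sums have a geometric mean of 999854, as transcripts-per-total values rescaled between libraries would, so which of these length-normalized units the values are in is not settled. A fold change is a difference of means on the log2(RPKM + 1) scale, which understates the change of genes with low values. A gene was called, and is said to have risen or fallen, at a fold change of at least 2 on that scale with an adjusted p of at most 0.05 in limma's moderated test, adjusted by Benjamini-Hochberg over the 5628 genes. In bulk RNA a lower level in every cell and fewer cells with the transcript cannot be told apart.

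Yeast that runs short of an amino acid translates more Gcn4, a basic leucine zipper protein that switches on synthesis genes of most amino acids. This general control acts mainly on the translation of *GCN4* mRNA and on the turnover of the protein, so transcript levels report only a part of it. Beside Gcn4 stand pathway-specific regulators, many of which read a metabolite of their own pathway. Leu3 responds to a leucine precursor, Arg80 and Arg81 to arginine, Lys14 to a lysine pathway intermediate and Aro80 to aromatic amino acids. Met4 is brought to sulfur genes by Cbf1 with Met28 and by Met31 and Met32, and Bas1 works with Pho2 on purine, histidine and folate genes. Sin3 is the scaffold of histone deacetylase complexes that repress many genes, Srb2 is a head subunit of the Mediator complex that links activators to RNA polymerase II, and Mig1 is a repressor of genes not needed on glucose.

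Some of the regulator genes have letters bound by regulators of the network in their own upstream sequences. The shared core of Gcn4 and Bas1 sites, TGACTC, was searched on both strands from 250 bases before the start codon to 50 bases after it in the R64 reference genome, and it was present in 4 of the 10 regulators and in 8.0% of 6020 such windows of the genome. Its longer form TGACTCA, which contains the core, was present in 2 regulators and in 2.7% of the windows. The core sites are printed here 5′ to 3′ on the gene's strand, with the match in capitals, because *LEU3*, *LYS14* and *MET28* are among the regulators whose levels differed between strains. *BAS1*, *ARG80*, *GCN4*, *ARO80* and *MET4* also differed in level and held no core match, and *MET4* was lower in *sin3∆* and *srb2∆*. A link of the core to these levels was not tested. The core sites lay 241 bases before the start codon of *LEU3*, 146 before *ARG81*, 250 before *LYS14* and 102 before *MET28*, where the match is on the opposite strand.
*LEU3*, chrXII:1035842-1035867, plus strand: ttgatcaaaaTGACTCgctgcgtaaa
*ARG81*, chrXIII:77171-77196, minus strand: ttgttatcaaTGACTCttcgcctgcg
*LYS14*, chrIV:512344-512369, minus strand: ggacgcgacgTGACTCaattggaaga
*MET28*, chrIX:384206-384231, minus strand: tcactggcgtGAGTCAaggccgggca

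*MET28* had the most kinds of match. Beside the Gcn4 core its window held CACGTG, the letters bound by Cbf1, 219 bases before the start codon, and CTGTGG, the core of Met31 and Met32 sites, 153 bases before it on the opposite strand. CACGTG occurred in 2.9% and CTGTGG in 6.8% of all windows. The 150 bases from 235 to 86 before the *MET28* start codon (chrIX:384205-384354, minus strand) are shown because *MET28* is the regulator whose level differed most between strains. Capitals mark, in order, the Cbf1 letters, the Met31 and Met32 core read on the other strand, and the long Gcn4 form read on the other strand.
*MET28* upstream: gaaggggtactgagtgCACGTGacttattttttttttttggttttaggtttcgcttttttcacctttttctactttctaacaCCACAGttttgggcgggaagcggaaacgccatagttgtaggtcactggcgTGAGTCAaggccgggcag

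Among the other letters searched, GGCGGC, the core of the URS1 element at which Ume6 brings Sin3 to genes, was present in 5.1% of windows and in *LEU3* alone of the regulators, 205 bases before its start codon. CTGTGG also occurred 246 bases before the *ARG80* start codon. The stress element AGGGG was present in 21.6% of windows and in *LEU3* and *MET28*. CCCCGC, a Mig1 site, was present in 2.6% of windows and in none of the 10 regulators. These matches describe the reference sequence only, and binding was not measured here.
*LEU3*, URS1 core on the other strand, chrXII:1035878-1035903, plus strand: gatcggaggtGCCGCCtaatttatcg

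**Figure D1:**
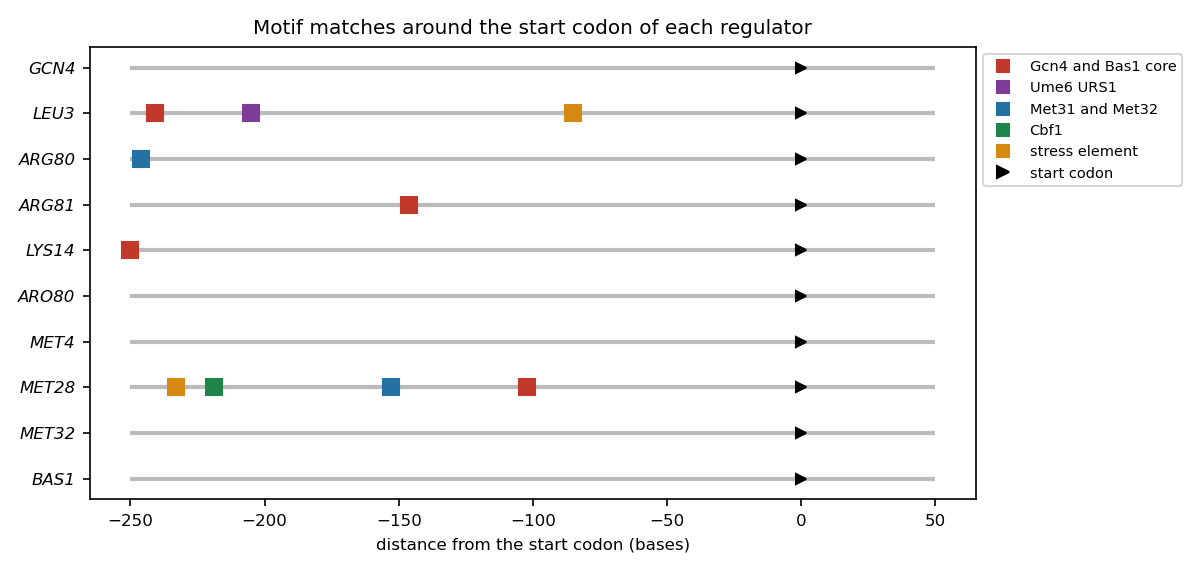
Positions of the searched motifs (coloured squares) relative to the start codon (black arrowheads, 0 on the x axis, in bases) for the 10 regulator genes (rows) in the R64 reference. *MET28* holds 4 kinds of match, *LEU3* holds 3, and *GCN4*, *ARO80*, *MET4*, *MET32* and *BAS1* hold none.

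*SIN3*, *SRB2* and *MIG1* were each at 0 RPKM where they had been deleted and at 17.1 RPKM or more in the other strains. The depth, estimated from the steps between low values, was 10012224 to 13379160 fragments a library. Of 5 a-cell markers, the receptor gene *STE2* was between 145 and 477 RPKM, and the a-factor genes *MFA1* and *MFA2* were listed at 0 in all libraries. Their summed level was 587 to 612 RPKM in the wild type, 174 to 187 in *sin3∆*, 440.3 to 441 in *srb2∆* and 542 to 558 in *mig1∆*, and *BAR1* was at 78.4 and 79.3 RPKM in the wild type against 9.15 and 9.84 in *sin3∆*. Of 4 alpha-cell markers, the receptor gene *STE3* was at most 0.352 RPKM, *MF(ALPHA)1* was at most 4.41, *MF(ALPHA)2* was between 15.4 and 21.8 and *SAG1* between 11.2 and 18.1 RPKM, so the labelled mating type rests on *STE2*, *STE6*, *BAR1* and the near absence of *STE3*. The part of these differences in the results was not tested. Ribosomal protein genes took 41.1% to 42.8% of the summed RPKM in *sin3∆* and *srb2∆* against 19.3% to 25.9% in the wild type and *mig1∆*. The part of this shift in the values of *sin3∆* and *srb2∆* was not tested, but a scaling of the libraries without those 137 genes was run, and it moved the median log2 difference over all genes to 0.10 in *sin3∆*, 0.20 in *srb2∆* and 0.08 in *mig1∆*.

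In the wild type, *GCN4* stood far above the other regulators at 599 ± 38.2 RPKM (SD, n = 2), higher than 95.4% of all genes. *MET4* followed at 41.9 ± 0.18 RPKM, then *ARG81* at 25.3 ± 0.10 and *ARG80* at 23.3 ± 1.11 RPKM. *MET32* at 16.4 ± 0.91, *LEU3* at 15.4 ± 0.51 and *LYS14* at 14.9 ± 0.30 RPKM came next, and the libraries of each neighbouring pair overlapped. *BAS1* at 7.81 ± 0.31 and *ARO80* at 7.12 ± 1.75 RPKM also overlapped, and *MET28* was last at 2.48 ± 0.14 RPKM, above only 11.1% of genes. The same order held in *mig1∆*. In *sin3∆* and *srb2∆*, *ARG80* took the second place at 41.5 ± 0.81 and 36.0 ± 1.66 RPKM and *MET4* moved behind it. *BAS1* was above *LYS14* in both strains but below it in the wild type.

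**Figure D2:**
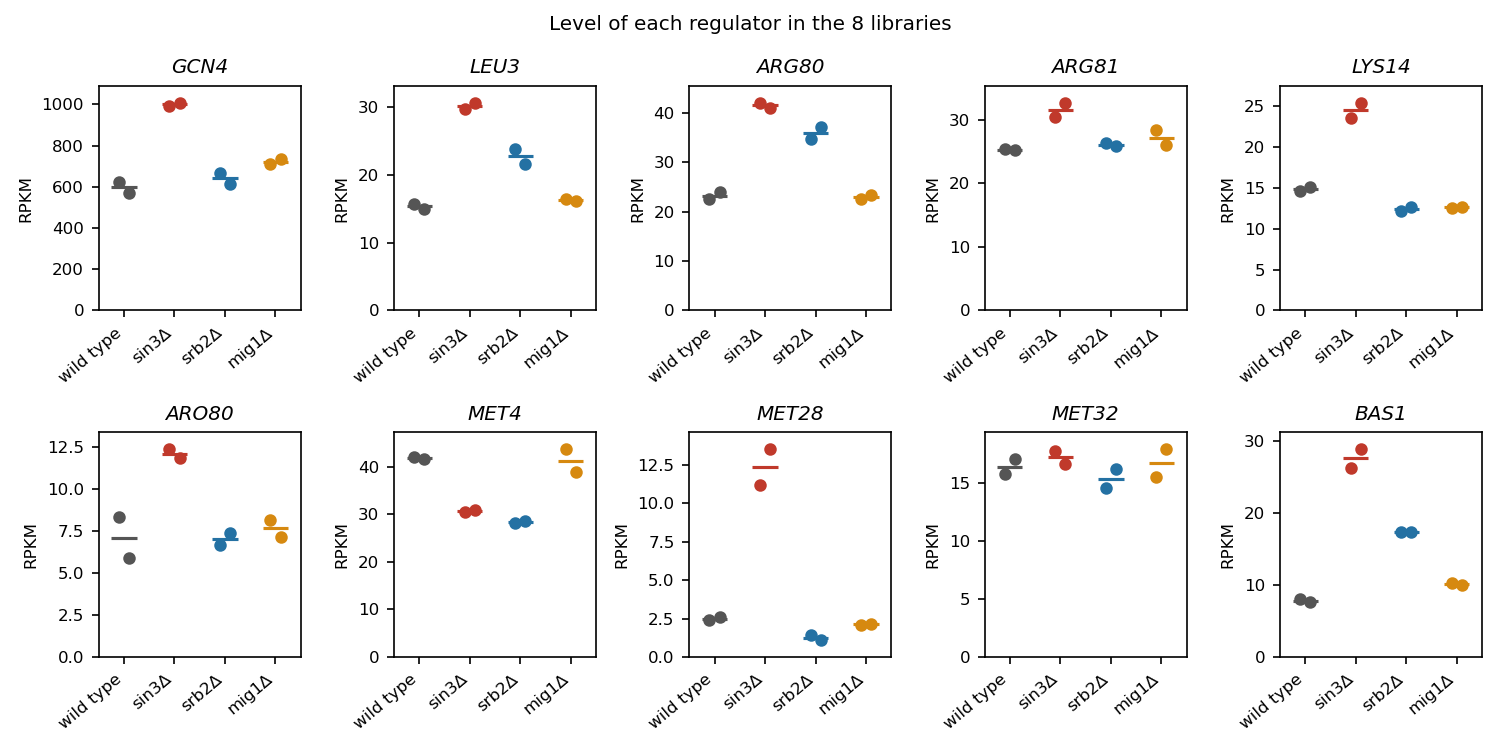
Level in RPKM (y axes, from 0) of each regulator in the 8 libraries, grouped by strain (x axes). Points are libraries and lines the mean of 2; the *sin3∆* points of *MET28* at 11.2 and 13.5 RPKM and of *BAS1* at 26.3 and 28.9 RPKM stand above all other libraries of those genes.

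Against the wild type, *MET28* and *BAS1* rose in *sin3∆*, *BAS1* rose in *srb2∆*, and no regulator was called in *mig1∆*. In *sin3∆* the 2 called of 10 stand beside 29.9% of all tested genes called, and 17.7% of all tested genes were called higher. At an adjusted p of at most 0.05 and any fold, 8 regulators were higher and 1, *MET4*, was lower in *sin3∆*, beside 74.0% of all genes past that p, and the median difference of the 10 was 0.72 against 0.01 over all genes. In *srb2∆* 1 of 10 was called, again beside 29.9% of all genes, and at an adjusted p of at most 0.05 and any fold, which 71.9% of genes passed, 3 were higher and 3 lower with a median of 0.02. In *mig1∆* 1.65% of genes were called. There 0 of 10 regulators were called in limma, 3 of them had an unadjusted p under 0.05, and *BAS1* alone was at an adjusted p of 0.0487, a value that ranged from 0.0374 to 0.204 over the alternatives tried. At any fold 12.1% of genes passed an adjusted p of 0.05 in *mig1∆*, and the share past an unadjusted p of 0.05 is not given here. All 3 comparisons share the 2 wild-type libraries.

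Set against *mig1∆* instead of the wild type, *MET28* and *BAS1* were again called in *sin3∆*. There *MET28* was higher by 2.10 ± 0.16 and *BAS1* by 1.36 ± 0.09 on the log2 scale (SE), with adjusted p-values of 2.0e-05 and 8.5e-06 in limma, where 26.8% of all genes were called. With a pseudocount of 5 the *MET28* value was 1.28, still called. Between *srb2∆* and *mig1∆* 0 regulators were called in limma, beside 25.7% of all genes called. An unadjusted p under 0.05 was reached by 5 regulators there, and the share of all genes past that p is not given here. *BAS1* was higher in *srb2∆* there by 0.72 ± 0.09 (adjusted p = 2.1e-04), short of the fold of 2.

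**Figure D3:**
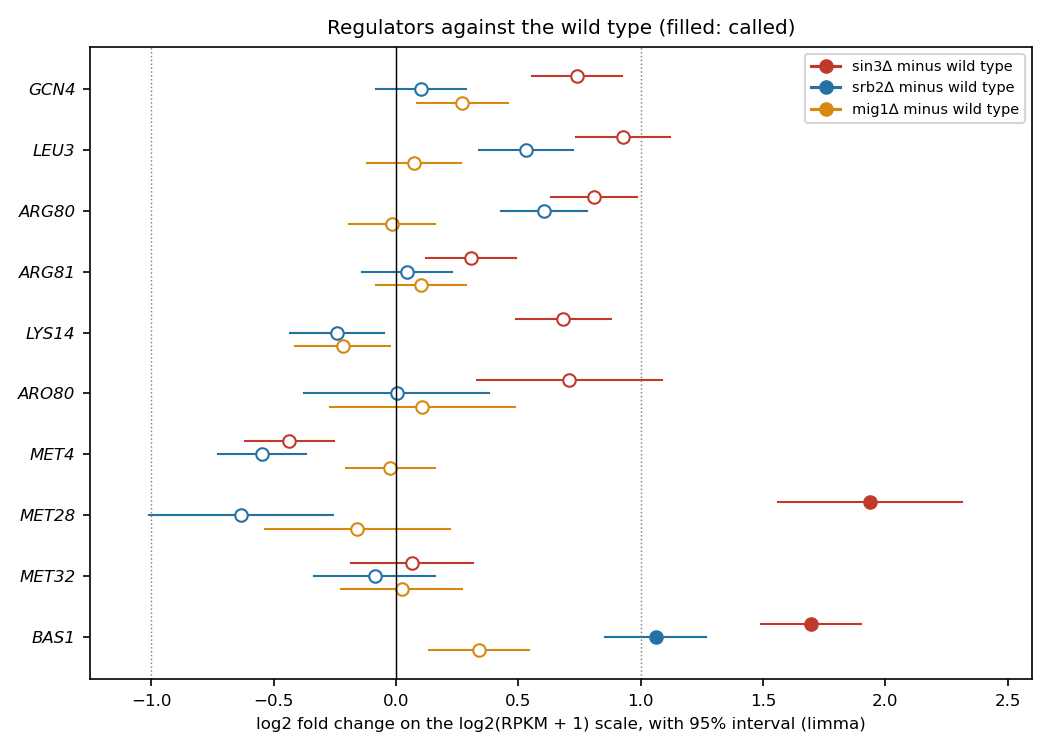
Log2 fold change of each regulator (rows) against the wild type with its 95% interval from limma (x axis, log2(RPKM + 1) scale) in *sin3∆*, *srb2∆* and *mig1∆*. Filled points are called genes and dotted lines mark a fold of 2 in either direction; *MET28* at 1.94 and *BAS1* at 1.70 in *sin3∆* and *BAS1* at 1.06 in *srb2∆* are filled.

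*GCN4* (chrV:138918-139763, minus strand) was at 626 and 572 RPKM in the wild type and at 991 and 1009 RPKM in *sin3∆*. It was at 669 and 616 RPKM in *srb2∆* and at 709.8 and 735 RPKM in *mig1∆*. The *sin3∆* libraries were above all others, the *mig1∆* libraries were above those of the wild type, and *srb2∆* overlapped the wild type. The mean in *sin3∆* was 1.67 times that of the wild type, a log2 difference of 0.74 ± 0.08 (SE) with an adjusted p of 9.5e-05 in limma, under the fold of 2 needed for a call. The log2 difference was 0.10 (adjusted p = 0.274) in *srb2∆* and 0.27 (adjusted p = 0.0658) in *mig1∆*. With scaling without ribosomal protein genes these were 0.34 (adjusted p = 0.0075) and 0.33 (adjusted p = 0.0403), both past the p threshold and under the fold of 2. The direct difference between *sin3∆* and *srb2∆* was 0.64 (adjusted p = 3.8e-04).

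Genes that Gcn4 is known to activate rose almost throughout in *sin3∆*. Of 38 listed targets 36 rose and none fell, with a median of 2.02, beside 17.7% of all genes called higher. The counts of this and the following lists are to be read against 995 genes that rose and 685 that fell of 5628 in *sin3∆*, and 844 that rose and 837 that fell in *srb2∆*. *ARG1*, argininosuccinate synthetase, rose from 26.9 to 1112 RPKM (log2 fold change 5.32). *SNZ1*, a pyridoxine synthesis gene, rose from 15.8 to 639 RPKM (5.25). The values of the 38 ran from 0.77 to 5.32, all above the 0.74 of *GCN4* mRNA itself. In *srb2∆* 7 of the 38 rose and 3 fell, with a median of 0.36, close to the share over all genes for rises and below it for falls. There *ASN1*, asparagine synthetase, rose by 1.88 and *THR4*, threonine synthase, by 1.45 on the log2 scale. *ARG4*, argininosuccinate lyase, fell from 167 to 43.2 RPKM in *srb2∆* (log2 fold change -1.92) and rose to 935 RPKM in *sin3∆*. In the direct comparison, 27 of the 38 were called higher in *sin3∆* than in *srb2∆* and 0 were called lower, beside 11.9% and 2.95% of all genes. In *mig1∆* 0 of the 38 were called, beside 1.65% of all genes, and the median was -0.13. An unadjusted p under 0.05 was reached by 15 of the 38, a count given without its share over all genes.

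The genes that control Gcn4 itself were a separate list. Of 15 listed genes for its translation and turnover, 1 rose in *sin3∆*, where 17.7% of all genes rose, and 7 rose in *srb2∆*, where 844 of 5628 did. None of the 15 fell in either strain. The riser in *sin3∆* was *PCL5*, the cyclin that directs the kinase Pho85 to Gcn4 and so promotes its breakdown. It was at 156 and 158 RPKM in the wild type, at 777 and 752 RPKM in *sin3∆*, and at 126 and 115 RPKM in *srb2∆*. Its log2 fold change was 2.28 in *sin3∆* and -0.38 in *srb2∆*. *PCL5* is itself a known target of Gcn4. The risers in *srb2∆* were led by *GCN3* (1.43) and *GCD1* (1.199), subunits of the exchange factor eIF2B, and *GCN1* (1.19), an activator of the kinase Gcn2. The *GCN1* value dropped to 0.82 without wild-type replicate 3, which ends that call. *GCN2* had log2 differences of -0.41 in *sin3∆* and -0.26 in *srb2∆*, neither called, and was chosen after its values were seen. *MBF1*, a coactivator of Gcn4 also chosen afterwards, was at -0.19 and -0.08.

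*LEU3* (chrXII:1036093-1038753, plus strand) encodes the zinc cluster regulator of branched-chain amino acid synthesis. It was at 15.7 and 14.999 RPKM in the wild type, 29.6 and 30.6 RPKM in *sin3∆*, 23.8 and 21.5 RPKM in *srb2∆*, and 16.4 and 16.0 RPKM in *mig1∆*. The *sin3∆* libraries were highest and the *srb2∆* libraries lay between them and the others. The *sin3∆* mean was 1.96 times the wild-type mean, a log2 difference of 0.93 ± 0.08 (SE; adjusted p = 3.6e-05 in limma), just under the fold threshold, and it reached 1.01 and was called when the libraries were scaled without ribosomal protein genes. In *srb2∆* the log2 difference was 0.53 (adjusted p = 7.1e-04). In the direct comparison *sin3∆* exceeded *srb2∆* by 0.40 (adjusted p = 0.00458), and by 0.26 (adjusted p = 0.0578) with that scaling. Of 8 listed Leu3 targets, 3 of which are also on the Gcn4 list, 6 rose in *sin3∆* with a median of 1.71, beside 17.7% of all genes. They were led by *OAC1* (2.41), a mitochondrial carrier, *ILV2* (2.23), acetolactate synthase, and *LEU2* (2.05), isopropylmalate dehydrogenase. *LEU1* was among the 2 not called, at -0.06, and was chosen after its value was seen. In *srb2∆*, *GDH1*, glutamate dehydrogenase (1.96), and *ILV2* (1.13) rose, and *LEU4*, isopropylmalate synthase, fell (-1.24), counts of 2 and 1 of 8 that are close to the shares over all genes there. *LEU4* was at 108 and 97.7 RPKM in the wild type, 256 and 273 RPKM in *sin3∆*, and 45.4 and 40.8 RPKM in *srb2∆*. *LEU3* mRNA thus stood above the wild type in both strains, while *LEU4* was above it in *sin3∆* and below it in *srb2∆*.

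*ARG80* and *ARG81* encode DNA-binding subunits of the complex with Mcm1 and Arg82 that represses arginine synthesis and induces arginine breakdown when arginine is plentiful. *ARG80* (chrXIII:352603-353136, plus strand) was at 22.5 and 24.1 RPKM in the wild type, 42.1 and 41.0 RPKM in *sin3∆*, 34.8 and 37.2 RPKM in *srb2∆*, and 22.6 and 23.5 RPKM in *mig1∆*. The *sin3∆* and *srb2∆* libraries were above all those of the wild type and *mig1∆*. The log2 difference from the wild type was 0.81 ± 0.07 (SE; adjusted p = 4.5e-05 in limma) in *sin3∆* and 0.61 ± 0.07 (adjusted p = 2.2e-04) in *srb2∆*, both under the fold of 2. The difference between these deletions was 0.20 with an adjusted p of 0.05003 that missed the threshold and a 95% interval from 0.03 to 0.38. *ARG81* (chrXIII:74398-77040, minus strand) varied less, from 25.2 to 32.7 RPKM over the 8 libraries. Its log2 difference was 0.31 in *sin3∆* (adjusted p = 0.00876), 0.04 in *srb2∆* (adjusted p = 0.631) and 0.10 in *mig1∆* (adjusted p = 0.441). With scaling without ribosomal protein genes it was 0.27 (adjusted p = 0.0376) in *srb2∆*.

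Of the 5 listed genes that the complex represses, 4 of which are on the Gcn4 list as well, 4 rose in *sin3∆*, and *ARG8* at 0.77 was not called. *ARG3*, ornithine carbamoyltransferase, rose from 6.24 to 97.3 RPKM (3.76) and *ARG56*, which encodes the precursor of a pair of ornithine synthesis enzymes, rose from 9.62 to 67.2 RPKM (2.68). Both genes that the complex induces also rose in *sin3∆*, *CAR1*, arginase, by 4.19 and *CAR2*, ornithine aminotransferase, by 3.72 on the log2 scale. Synthesis and breakdown genes of arginine thus rose in the same strain. In *srb2∆*, *CAR1* (1.87) and *CAR2* (1.83) rose as well, but 0 of the 5 synthesis genes rose and *ARG3* fell to 2.61 RPKM (-1.03). That call of *ARG3* ended under 5 alternatives, at values from -0.57 to -0.997. All 5 repressed genes were called higher in *sin3∆* than in *srb2∆*, with a median of 2.98, beside 11.9% of all genes called higher.

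*LYS14* (chrIV:509737-512109, minus strand), the activator of lysine synthesis, was at 14.6 and 15.1 RPKM in the wild type and at 23.5 and 25.4 RPKM in *sin3∆*. It was at 12.2 and 12.7 RPKM in *srb2∆* and at 12.6 and 12.7 RPKM in *mig1∆*. Its libraries were above the wild type in *sin3∆* and below it in the other deletions. In *mig1∆* the log2 difference of -0.22 missed the p threshold (adjusted p = 0.132 in limma). The log2 difference was 0.68 ± 0.08 (SE; adjusted p = 1.8e-04 in limma) in *sin3∆* and -0.24 (adjusted p = 0.0313) in *srb2∆*, and the latter was at -0.02 (adjusted p = 0.852) with scaling without ribosomal protein genes. *sin3∆* exceeded *srb2∆* by 0.92 (adjusted p = 7.9e-05), a ratio of means of 1.97. All 7 listed Lys14 targets rose in *sin3∆*, with a median of 2.27, and 4 of them are on the Gcn4 list. *LYS20*, homocitrate synthase, the entry to the pathway, rose from 118 to 1422 RPKM (3.579), *LYS1*, saccharopine dehydrogenase, rose by 2.79 and *LYS4*, homoaconitase, by 2.36. In *srb2∆*, *LYS4* (1.18) and *LYS20* (1.02) rose although *LYS14* itself was below the wild type in both libraries. The *LYS20* call ended with a pseudocount of 5 (0.996), and also when wild-type replicate 3 was left out (0.92).

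*ARO80* (chrIV:1312040-1314892, plus strand), the activator of aromatic amino acid breakdown, was at 8.36 and 5.88 RPKM in the wild type, a wider spread than in any other strain. It was at 12.4 and 11.8 RPKM in *sin3∆*, 6.70 and 7.40 in *srb2∆*, and 8.19 and 7.14 RPKM in *mig1∆*. Only *sin3∆* lay apart from the wild type. Its log2 difference was 0.71 ± 0.16 (SE; adjusted p = 0.00499 in limma), with a 95% interval from 0.33 to 1.09. In *srb2∆* it was 0.00 with an interval from -0.37 to 0.38. All 3 listed targets rose in *sin3∆*. *ARO9*, an aromatic aminotransferase, was at 5.84 and 5.49 RPKM in the wild type and at 199 and 189 RPKM in *sin3∆* (log2 fold change 4.87). *ARO10*, the decarboxylase that follows it on the way to fusel alcohols, rose by 3.34, and *ESBP6*, a transporter-like gene, by 1.87. *ARO9* also rose in *srb2∆*, to 48.4 and 51.3 RPKM (2.93), where *ARO80* overlapped the wild type. In *mig1∆* none of the 3 was called, beside 1.65% of all genes, and their values ran from 0.46 to 0.96. All 3 had an unadjusted p under 0.05, a count given without its share over all genes.

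The sulfur regulators went different ways. *MET28* (chrIX:383556-384119, minus strand), a leucine zipper protein that stabilises Cbf1 and Met4 on DNA, was at 2.38 and 2.58 RPKM in the wild type and at 11.2 and 13.5 RPKM in *sin3∆*. It was at 1.43 and 1.07 RPKM in *srb2∆* and at 2.08 and 2.16 RPKM in *mig1∆*. The *sin3∆* libraries were highest, the *srb2∆* libraries lowest, and neither overlapped the wild type. *MET28* rose in *sin3∆*, with means of 12.4 against 2.48 RPKM, a ratio of 4.99 and a log2 fold change of 1.94 ± 0.16 (SE; adjusted p = 2.6e-05 in limma). Without each library in turn the value ran from 1.81 to 2.06, and it was 1.21 with a pseudocount of 5 and 2.27 with one of 0.1, called in each. In *srb2∆* the log2 difference was -0.63 ± 0.16 (adjusted p = 0.00877), not called, and it was -0.20 (adjusted p = 0.349) after quantile normalization. The direct difference between *sin3∆* and *srb2∆* was 2.57 ± 0.16 (adjusted p = 1.5e-05), the only one of the 10 regulators called between them, beside 14.9% of all genes. With a pseudocount of 5 that difference was 1.47. These levels rest on few fragments, an estimated 47.0 and 72.9 in *sin3∆*, 13.2 and 13.4 in the wild type, and 7.1 and 5.1 in *srb2∆*.

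*MET4* (chrXIV:427735-429753, plus strand), the activator of the sulfur pathway, was at 42.0 and 41.8 RPKM in the wild type and at 43.7 and 38.8 RPKM in *mig1∆*. It was lower in both other deletions, at 30.4 and 31.0 RPKM in *sin3∆* and at 28.2 and 28.5 RPKM in *srb2∆*. The log2 difference was -0.44 ± 0.08 (SE; adjusted p = 0.00145 in limma) in *sin3∆* and -0.55 ± 0.08 (adjusted p = 4.4e-04) in *srb2∆*, both under the fold of 2. *MET32* (chrIV:963990-964565, minus strand), a zinc finger protein that brings Met4 to DNA, ran from 14.5 to 17.9 RPKM over the 8 libraries. Its log2 difference was 0.07 in *sin3∆*, with a 95% interval from -0.18 to 0.31, -0.09 in *srb2∆*, from -0.33 to 0.16, and 0.02 in *mig1∆*, from -0.22 to 0.27. Of the regulators it varied least, and its libraries overlapped those of the wild type in all 3 deletions.

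Of 20 listed Met4 targets, 4 rose and 5 fell in *sin3∆* with a median of 0.03, where 17.7% of all genes rose and 685 of 5628 fell. In *srb2∆*, 0 rose and 9 fell with a median of -0.93, beside 14.9% of all genes called lower there. *MET3*, *SUL2* and *MET17* were among those that fell in both strains. *MET3*, ATP sulfurylase, fell from 95.3 RPKM in the wild type to 11.04 in *sin3∆* (-2.999) and 9.25 in *srb2∆* (-3.23). *SUL2*, a sulfate permease, fell by 2.31 and 2.42 on the log2 scale. *MET17*, which joins sulfide to the carbon chain of homocysteine, fell from 345 RPKM to 85.1 in *sin3∆* (-2.01) and 17.9 in *srb2∆* (-4.20). The 4 risers in *sin3∆* were *STR3*, which turns cystathionine into homocysteine (1.87), the methionine synthase gene *MET6* (1.38), the methylenetetrahydrofolate reductase gene *MET13* (1.23) and *MET1* (1.10), which is needed for siroheme. *MET6*, *MET13* and *MET1* were named after their values were seen.

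*STR3* had the widest spread of the sulfur genes. It was at 27.7 and 21.8 RPKM in the wild type, 91.6 and 93.0 RPKM in *sin3∆*, 1.35 and 1.30 RPKM in *srb2∆*, and 6.15 and 7.35 RPKM in *mig1∆*. The 4 strains did not overlap, and *STR3* was the single called gene of the 20 in *mig1∆* (-1.73), beside 1.65% of all genes. *MET28* had the same top and bottom strain. Between *sin3∆* and *srb2∆*, 10 of the 20 targets were called higher in *sin3∆*, beside 11.9% of all genes. *CYS3* was the 1 called lower, beside 2.95% of all genes, and was chosen after its value was seen. *CYS3*, cystathionine gamma-lyase, was at 208 RPKM in *sin3∆*, 458 in *srb2∆* and 419 RPKM in the wild type.

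*BAS1* (chrXI:635851-638286, plus strand) encodes the Myb-type activator of purine and histidine synthesis. It was at 8.03 and 7.59 RPKM in the wild type, 26.3 and 28.9 RPKM in *sin3∆*, 17.4 and 17.4 RPKM in *srb2∆*, and 10.3 and 9.95 RPKM in *mig1∆*. The 4 strains did not overlap, and all deletions were above the wild type. *BAS1* rose in *sin3∆* with a ratio of means of 3.53 and a log2 fold change of 1.70 ± 0.09 (SE; adjusted p = 2.6e-06 in limma). It rose in *srb2∆* with a ratio of 2.23 and a log2 fold change of 1.06 ± 0.09 (adjusted p = 2.5e-05). That call ended at a pseudocount of 5, with 0.81, and stood at 1.28 with scaling without ribosomal protein genes. In *mig1∆* the log2 difference was 0.34 (adjusted p = 0.0487), under the fold of 2. *sin3∆* exceeded *srb2∆* by 0.64 ± 0.09 (adjusted p = 6.5e-04), also under that fold.

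The order of the strains was another for Bas1 targets. Of 17 listed targets 9 rose in *sin3∆* with a median of 1.004, beside 17.7% of all genes called higher, and 12 rose in *srb2∆* with a median of 1.23, where 844 of 5628 genes rose. None fell in either strain. In *sin3∆* the largest changes were those of *HIS4* and *HIS7*, histidine genes that are on the Gcn4 list too. *HIS4* was at 82.4 and 75.1 RPKM in the wild type, 732 and 769 RPKM in *sin3∆*, and 101 and 104 RPKM in *srb2∆*. *HIS7* rose by 2.11 and *ADE12*, adenylosuccinate synthase, by 2.04 in *sin3∆*. In *srb2∆* the largest changes were those of a folate gene and 2 purine genes. *MTD1*, a cytosolic methylenetetrahydrofolate dehydrogenase, was at 23.2 and 21.2 RPKM in the wild type, 61.9 and 69.6 RPKM in *sin3∆*, and 212 and 207 RPKM in *srb2∆* (3.18). *ADE6* rose by 2.17 and *ADE17* by 2.13 in *srb2∆*, both enzymes of de novo purine synthesis. In the direct comparison 4 of the 17 targets, *ADE2*, *ADE17*, *MTD1* and *GCV1*, were called lower in *sin3∆* than in *srb2∆*, beside 2.95% of all genes. *HIS4* and *ADE12*, 2 of the 17, were called higher, which is close to the share of 11.9% over all genes. *BAS1* mRNA itself was higher in *sin3∆*, though not called. *ADE2* and *GCV1* were named after their values were seen. In *mig1∆* 0 of the 17 were called, beside 1.65% of all genes, and the median was 0.34 against 0.03 over all genes. An unadjusted p under 0.05 was reached by 12 of them, and the share of all genes past it is not given here.

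**Figure D4:**
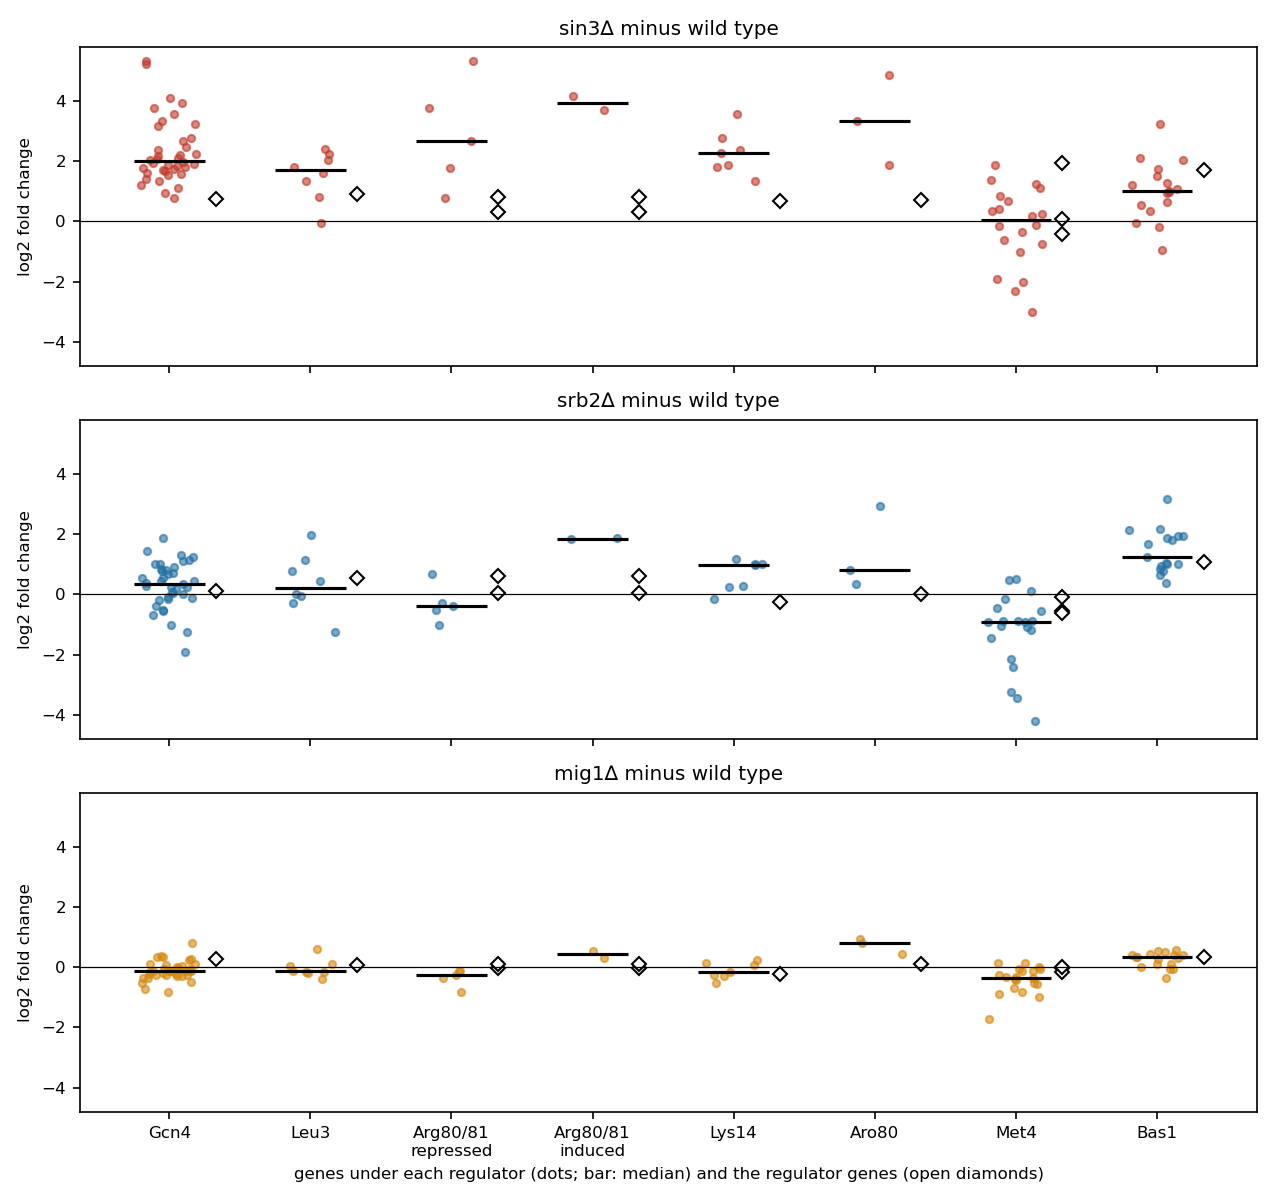
Log2 fold change against the wild type (y axes) of the listed genes under each regulator (dots, with a bar at their median) and of the regulator genes themselves (open diamonds; *ARG80* and *ARG81* for the arginine lists, *MET4*, *MET28* and *MET32* for the Met4 list) in *sin3∆*, *srb2∆* and *mig1∆*. In *sin3∆* the medians of all lists but Bas1 and Met4 lie above their diamonds, as with Gcn4 at 2.02 and Lys14 at 2.27. The Bas1 median at 1.004 lies below the diamond at 1.70, and the Met4 median at 0.03 lies between its diamonds. In *srb2∆* the Met4 list has its median at -0.93.

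Partners of these regulators were a list of 14 genes. In *sin3∆* 1 of them was called, beside 29.9% of all genes, and it rose: *UGA3*, the activator of GABA use, from 19.5 to 79.1 RPKM (1.97). In *srb2∆* 3 were called, again beside 29.9% of all genes. *MET31*, the near relative of *MET32*, rose (1.05), and *GLN3*, the activator of nitrogen catabolic genes, and *STP2*, an activator of amino acid permease genes, fell (-1.30 and -1.04). Each of these *srb2∆* values fell short of the fold of 2 under at least 1 alternative, *MET31* at 0.82 without wild-type replicate 2, *GLN3* at -0.87 with a pseudocount of 5 and *STP2* at -0.81 with scaling without ribosomal protein genes. In *mig1∆* 0 of the 14 were called in limma, beside 1.65% of all genes. An unadjusted p under 0.05 was reached by 3 of the 14, a count given without its share over all genes. *CBF1*, *PHO2* and *MCM1*, the DNA-binding partners of Met28, Bas1 and Arg80, were chosen for those roles and were not called in any deletion. Their values were 0.01, 0.06 and -0.72 in *sin3∆* and 0.06, 0.02 and -0.13 in *srb2∆*. *MCM1* was thus not unchanged. Directly between *sin3∆* and *srb2∆* it differed by -0.59 (adjusted p = 1.95e-04 in limma), under the fold of 2. *CBF1* and *PHO2* were at -0.05 and 0.04 there.

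The genes most like the 2 called regulators were sought among 4954 genes whose mean over the libraries was 10 RPKM or more, by the root mean square difference of log2(RPKM + 1) over the 8 libraries after centring each gene. For *MET28* the nearest was *PCL5* at 0.15, followed by *CIA2*, an iron-sulfur cluster assembly gene, at 0.16 and *QDR3*, a drug transporter gene, at 0.16. The nearest other regulator was *LYS14* at 0.62. For *BAS1* the nearest were *DPB2*, a subunit of DNA polymerase epsilon, at 0.06, YDR341C, an arginine-tRNA ligase in the R64 annotation, at 0.08 and YPL245W at 0.09, and the nearest other regulator was *LEU3* at 0.29. *PCL5* was at 4.87 times its wild-type mean in *sin3∆* and at 0.77 times in *srb2∆*, where *MET28* was at 4.99 and 0.50 times. The log2(RPKM + 1) scale understates the changes of *MET28* more than those of these higher genes, so the ranking is not one by ratio. *CIA2* was at 63.3 and 73.5 RPKM in the wild type and at 224.2 and 224.5 RPKM in *sin3∆*, a smaller ratio than that of *MET28*.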

How the data were processed

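RNA-seq libraries of 4 strains were analysed, 2 per strain, from a table of RPKM values of 6103 genes. The deposited RPKM values were made by the authors, who aligned reads to R64 with Bowtie2 2.2.3 and quantified them with RSEM per the study methods, and the table name gives a TMM scaling between libraries. Column sums ran from 862336 to 1150769 with a geometric mean of 999854, so the libraries are not on one total. How reads shared by similar genes were assigned, and whether strand was used, is not given in the sources used here; no regulator overlaps another gene annotated in R64.

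Values were tested as log2(RPKM + 1) with limma 3.58.1 in R 4.3.3, and genes under 1 RPKM in all but 1 or none of the libraries were left out. All 8 libraries entered one fit with a trended prior and 4 residual degrees of freedom. Counts were not used. Each mean is that of 2 libraries, while the spread behind its precision was pooled over the strains and moderated by the prior. Fragments were estimated from the steps between low values, a choice made after the data had been seen; from 67.1% to 86.2% of low genes of a library lay within 0.1 fragment of a whole number, so these estimates are approximate. The authors' own comparison tables (log2 fold changes, p-values and FDR made with DESeq2) were not used. Members and lists were chosen with earlier results of these data known. The named genes are the 10 regulators and, per list and deletion, the 3 called genes with the largest change, and others are marked in the text; 1 gene that the rule names is not reported here. Motif matches and coordinates come from the RefSeq R64 sequence and annotation. The alternatives were other scalings, filters and pseudocounts, no trend, groups fitted alone, a replicate block and leaving out each library. The test was tried on simulated data. Python 3.11.15 with pandas 2.3.3, numpy 2.4.6 and matplotlib 3.10.9 served for tables and plots.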

Additional observations from a re-analysis of the deposited data

How the results depend on the processing

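With 2 libraries per strain, differences under the fold of 2 rest on a small spread, and *MET28* rests on the fewest fragments. At a pseudocount of 5, 0 regulators were called in *srb2∆*, where *BAS1* was at 0.81. *LEU3* was called in *sin3∆* (1.012) with scaling without ribosomal protein genes. The 19 alternatives, apart from leaving out libraries, that turned a direction all concerned values that were not called. With scaling without ribosomal protein genes, *MET32* was at 0.13 in *srb2∆* against the wild type, *ARG80* at 0.0445 and *MET4* at 0.0388 in *mig1∆* against the wild type, and *MET4* at -0.0268 in *sin3∆* against *srb2∆*. That scaling gave 0.0021 for *GCN4*, 0.11 for *ARG81*, 0.14 for *LYS14*, 0.0459 for *ARO80* and 0.0516 for *MET32* in *srb2∆* against *mig1∆*. Quantile normalization gave 0.0657, 0.21, 0.24, 0.0330 and 0.0883 for *ARG81*, *LYS14*, *ARO80*, *MET28* and *MET32* in that comparison. It put *MET32* at -0.0058 in *sin3∆*, 0.0631 in *srb2∆* and -0.0252 in *mig1∆* against the wild type, and at -0.0689 in *sin3∆* against *srb2∆*. *ARO80* was at -0.0015 in *srb2∆* at a pseudocount of 5. The median over all genes in *srb2∆* against *mig1∆* was -0.02 in the main fit. It was 0.14 with scaling without ribosomal protein genes and 0.10 after quantile normalization. The cause of these turns was not tested.

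Leaving out each library in turn kept 2 regulators called in *sin3∆* and 1 in *srb2∆*. The values ran from -0.22 to 0.22 for *ARO80* in *srb2∆*. In *mig1∆* they ran from -0.11 to 0.33 for *ARO80*, -0.0763 to 0.12 for *MET32*, -0.0623 to 0.0308 for *ARG80* and -0.11 to 0.0610 for *MET4*. They ran from -0.0565 to 0.14 for *MET32* in *sin3∆* against *mig1∆*, and from -0.0514 to 0.0079 for *LYS14* and -0.12 to 0.0067 for *ARG81* in *srb2∆* against *mig1∆*. A strain left with 1 library was assumed to vary like the others.

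Replicate numbers were shared by the wild type and *srb2∆* and by *sin3∆* and *mig1∆*. Same-numbered libraries hardly deviated together, with correlations of 0.06 and 0.02 over 5628 genes, so the numbers were not taken as pairs. A fit with the replicate number as a block called 1683 genes and 1 regulator in *srb2∆* against the wild type when those strains were fitted alone, against 1671 and 1 without the block in the same libraries, with *BAS1* at 1.06 (adjusted p = 0.00393 in limma with the block and 0.00107 without). In *sin3∆* against *mig1∆* it called 1527 genes and 2 regulators, against 1514 and 2 without the block.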
